A study of Rattus norvegicus with 12 samples.

Results

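The miR-23, miR-24 and miR-27 miRNAs were followed in the plasma of 12 female Wistar rats. The rat nCounter panel, which counts single miRNA molecules through coloured barcodes, holds 5 probes whose names reduce to miR-23a, miR-23b, miR-24, miR-27a or miR-27b, out of 420 probes for rat miRNAs. They were rno-miR-23a, rno-miR-23b, rno-miR-24, rno-miR-27a and rno-miR-27b, and none of the names gives an arm of the hairpin. The 6 pregnant rats were taken on embryonic day E14.5 after timed mating, and the 6 control rats were not pregnant. Control rats were 110 to 269 days old and pregnant rats 103 to 373 days old, and each group held 2 rats aged at least 239 days. All rats were killed with CO2, blood was drawn from the heart after death, and RNA came from plasma spun to remove cells and platelets, with the rice miRNA osa-miR-414 added to every sample. Each rat gave 1 sample. The values are raw counts. In plasma, a change in the number of cells that release a miRNA and a change in the amount released by each cell cannot be told apart.

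miR-23, miR-27 and miR-24 lie side by side in the genome and are cut from a shared primary transcript. Mammals carry a pair of such clusters, one with miR-23a, miR-27a and miR-24-2 and the other with miR-23b, miR-27b and miR-24-1. The clusters are active in endothelial, blood and muscle cells among others, and miR-23a is often used as a reference for haemolysis in plasma, where it is set against the red cell miRNA miR-451. A miRNA recognises its targets mainly through its seed, bases 2 to 8, so miRNAs with the same seed share many targets.

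The 3′ arm sequences in RefSeq (build GRCr8) are printed because they show which probes can be told apart only by a single base. The sequences are written 5′ to 3′ with the seed in capitals.
miR-23a: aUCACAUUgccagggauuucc
miR-23b: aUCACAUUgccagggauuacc
miR-27a: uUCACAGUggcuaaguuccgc
miR-27b: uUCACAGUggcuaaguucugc
miR-24: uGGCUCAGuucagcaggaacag
These are the arms to which the names without an arm usually refer, but the deposited table does not say which arm each probe reads. miR-23a and miR-23b have the seed UCACAUU, are 21 bases long and share 20 of them. Their difference is U19A, counted from 1 at the 5′ end of miR-23a. miR-27a and miR-27b have the seed UCACAGU and also share 20 of 21 bases, with the difference C19U. How far each probe also counts its near-identical partner was not tested. The 22-base miR-24-3p is the same from both clusters, so a count of it could not be assigned to either.

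In GRCr8 the hairpins of the miR-23a cluster span 389 bases on the minus strand, at chr19:40859455-40859843, and no other RefSeq gene overlaps this span. The mature miR-23a-3p lies at chr19:40859778-40859798 and miR-27a-3p at chr19:40859614-40859634. The hairpins of the miR-23b cluster span 814 bases on the minus strand at chr17:1818669-1819482, within the annotated bounds of the genes Aopep and Fancc and overlapping the hairpin of Mir3074. There miR-23b-3p lies at chr17:1819405-1819425 and miR-27b-3p at chr17:1819163-1819183. The table used gives no exons, so exon and intron were not told apart here.

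The depth of a sample is the total count of its rat miRNA probes, which lay between 6969 and 10176 in control rats and between 5163 and 30301 in pregnant rats. Pregnant replicates 5 and 6 had the highest totals, 24010 and 30301. In pregnant replicates 1 and 2 the abundant blood miRNA miR-16 was listed at 1 count. The fold changes, correlations, spreads and workflow counts are also given without each of these pairs of rats. The background in a rat was taken from the 4 exogenous probes for which no miRNA had been added, and its mean + 1 SD lay between 12.6 and 32.4 counts.

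miR-23a, miR-27a and miR-27b were among the most abundant miRNAs in the plasma, while miR-23b and miR-24 were not detectable above background. By mean raw count over the 12 rats, miR-27b ranked 7 of 420 with 279 ± 333 counts (SD), miR-23a ranked 9 with 219.8 ± 271 counts and miR-27a ranked 12 with 187 ± 183 counts. Each of these 3 was above the mean + 2 SD of the background in 12 of 12 rats. By name, the abundant probes thus belong to both clusters, miR-23a and miR-27a to one and miR-27b to the other. Whether the miR-27a and miR-27b probes also count each other's miRNA was not tested.

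miR-23a, which is encoded in the chromosome 19 cluster, had 197, 145, 110, 152, 132 and 89 counts in control replicates 1 to 6. In pregnant replicates 1 to 6 it had 36, 32, 94, 184, 461 and 1005 counts. The pregnant rats therefore lay on both sides of the controls, with 2 below every control rat and 2 above every control rat. The means were 137.5 ± 37.3 in control and 302 ± 380 in pregnant rats (SD, n = 6 each), but the medians were 138.5 and 139.

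miR-27a, its neighbour in the same cluster, had 120, 139, 140, 167, 140 and 58 counts in the control rats. It had 43, 35, 92, 209, 444 and 655 counts in the pregnant rats. The order of the pregnant rats was that of miR-23a, and 2 pregnant rats were below and 3 above all controls. The means were 127 ± 37.1 in control and 246 ± 252 in pregnant rats (SD, n = 6 each), with medians of 139.5 and 150.5.

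miR-27b, from the chromosome 17 cluster, had 197, 169, 166, 179, 146 and 99 counts in the control rats. It had 65, 27, 201, 198, 727 and 1177 counts in the pregnant rats. Again pregnant replicates 1 and 2 were below all controls, and the other 4 were above all of them. The means were 159 ± 33.9 in control and 399 ± 457 in pregnant rats (SD, n = 6 each), with medians of 167.5 and 199.5. Among the older rats, the pregnant replicates 1 and 3 had less miR-23a (36 and 94 counts) than control replicates 1 and 2 (197 and 145 counts). For miR-27b, pregnant replicate 1 (65 counts) was below and pregnant replicate 3 (201 counts) above both of these controls (197 and 169 counts).

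miR-23b, the partner of miR-23a that differs from it at base 19, had 3, 8, 4, 1, 6 and 4 counts in the control rats. It had 2, 5, 2, 2, 17 and 9 counts in the pregnant rats. It was above the mean + 1 SD of the background in 0 of 12 rats, and above its mean in 1 rat, pregnant replicate 5, at 17 counts. In the same rats miR-27b, from the same cluster, was counted at 27 to 1177. How well each probe captures its miRNA is not known, so these counts do not give the amounts of one miRNA against another.

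miR-24 was listed at 1 count in all 12 rats and was 1 of 14 rat miRNA probes listed so. The smallest value in the table is 1, so 1 stands for no signal, and no ratio, correlation or spread could be computed for it. No signal of miR-24 was read in any rat, at totals from 5163 to 30301 counts. Whether its probe captured the miRNA in this assay was not tested.

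**Figure D1:**
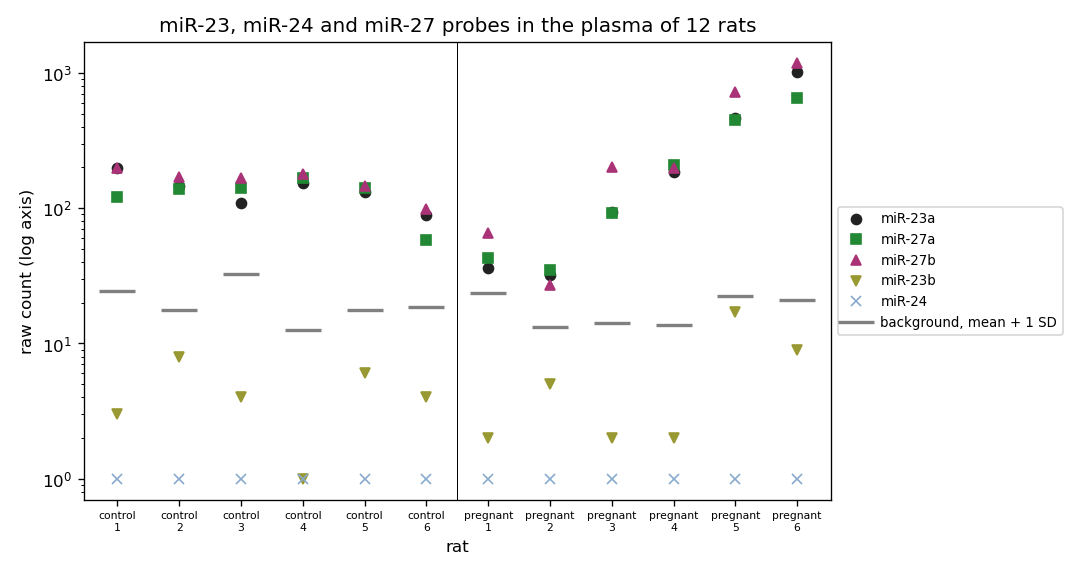
Raw counts of the 5 probes (log axis) in each of the 6 control and 6 pregnant rats, with a grey bar at the mean + 1 SD of the 4 unspiked exogenous probes in that rat. miR-23a, miR-27a and miR-27b sit above the bar in every rat and range far more widely in the pregnant rats, from 27 to 1177 counts, than in the control rats, from 58 to 197, while miR-23b and miR-24 sit below it.

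The level of the 3 abundant miRNAs did not differ between pregnant and control rats beyond the spread between rats. In edgeR's quasi-likelihood test with TMM scaling (a factor per rat that makes most probes comparable), 0 of the 187 tested probes passed an adjusted p of 0.05, which is 0% of them. At an unadjusted p under 0.05, 11 of 187 (5.88%) passed and 0 of the 3 members did. The log2 fold change of pregnant over control was 0.74 ± 0.61 (SE) for miR-23a, with an adjusted p of 0.797 by edgeR and Benjamini-Hochberg. For miR-27a it was 0.59 ± 0.55, with an adjusted p of 0.797 by the same test. For miR-27b it was 0.93 ± 0.61, with an adjusted p of 0.732. The median over all tested probes was 0.05. Most of the 187 were not above background in all rats, so this median is not that of equally abundant probes. miR-23b did not pass the filter of 10 counts in 6 rats, and in the fit on all 420 probes its log2 fold change was 0.39 ± 0.49, with an adjusted p of 0.986.

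The direction of these differences depended on a few pregnant rats and on the scaling. Without pregnant replicate 6 the log2 fold change of miR-23a was 0.002, that of miR-27a 0.15 and that of miR-27b 0.36. Without pregnant replicates 5 and 6 it was -0.45 ± 0.47 (SE) for miR-23a, -0.22 ± 0.50 for miR-27a and -0.17 ± 0.48 for miR-27b, so that all 3 were below 0. Without pregnant replicates 1 and 2 it was 1.17 ± 0.42 for miR-23a, 1.02 ± 0.40 for miR-27a and 1.38 ± 0.39 for miR-27b, with adjusted p of 0.101, 0.134 and 0.0502 by edgeR. Pregnant replicates 5 and 6 held the highest levels of all 3 miRNAs and pregnant replicates 1 and 2 the lowest, so leaving out either pair shifts the difference by construction. Scaling by the library size alone moved the median of all tested probes to -0.33 and gave -0.12 for miR-23a, -0.15 for miR-27a and 0.08 for miR-27b. Relative to that median they were higher by 0.21, 0.18 and 0.41 on the log2 scale. In the 8 younger rats alone the log2 fold change was 1.28 ± 0.75 for miR-23a, 0.95 ± 0.69 for miR-27a and 1.32 ± 0.81 for miR-27b, with the lowest adjusted p at 0.700. With 2 rats per group, the older rats were too few for a test of their own.

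**Figure D2:**
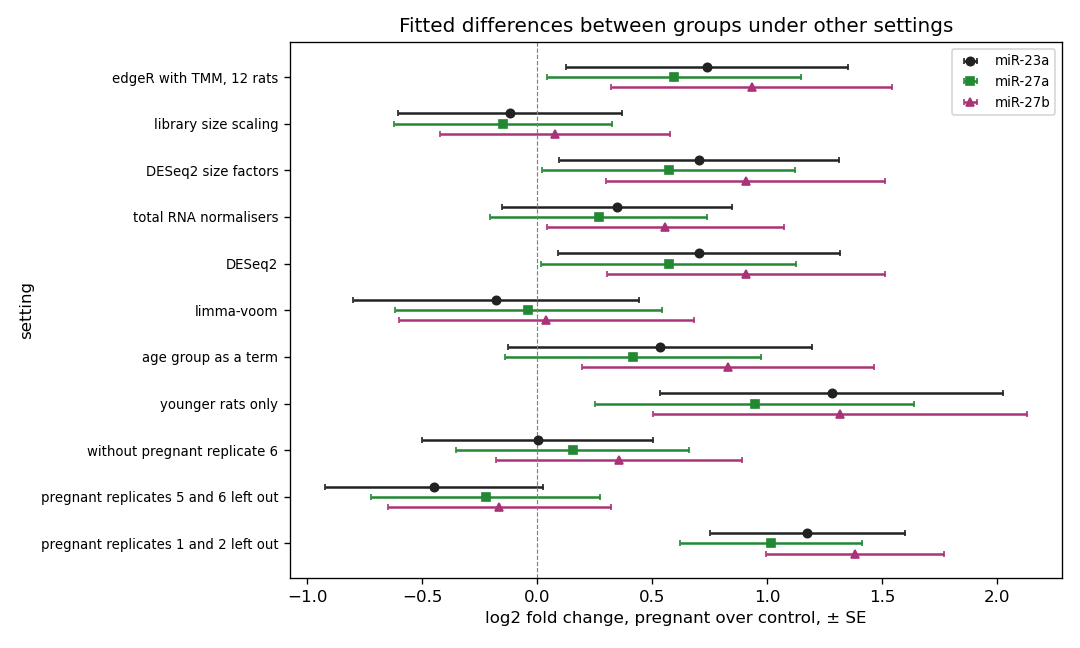
Log2 fold change of pregnant over control (horizontal axis, with SE bars) for miR-23a, miR-27a and miR-27b in the count model and under other settings, 1 row per setting. With TMM and 12 rats the 3 values are 0.74, 0.59 and 0.93, and they fall to -0.45, -0.22 and -0.17 when pregnant replicates 5 and 6 are left out.

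As a share of all rat miRNA counts, the 5 probes together made up 4.82% ± 1.06 in control rats and 4.81% ± 3.10 in pregnant rats (SD, n = 6 each; two-sided exact permutation p = 0.987 over 924 assignments). The low counts of miR-23b and miR-24 were part of this sum. The lowest share was 1.69% in pregnant replicate 1, with a 95% exact binomial interval of 1.43 to 1.98%. The highest was 9.40% in pregnant replicate 6, with an interval of 9.07 to 9.73%. These intervals cover counting error only and are far narrower than the spread between the pregnant rats.

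Within a rat, probes assigned by name to the clusters can be compared without any scaling, since both probes share the rat's depth. The log2 ratio of miR-23a to miR-27a, neighbours in one cluster, was 0.14 ± 0.43 in control and 0.02 ± 0.31 in pregnant rats (SD, n = 6 each). The difference was -0.11, with a 95% interval of -0.58 to 0.37 and a two-sided exact permutation p of 0.654. The ratio was above 0 in 6 of 12 rats.

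The log2 ratio of miR-27a to miR-27b compares the probes named for the partners from the separate clusters. In control replicates 1 to 6 it was -0.71, -0.28, -0.24, -0.10, -0.06 and -0.76. In pregnant replicates 1 to 6 it was -0.58, 0.36, -1.12, 0.08, -0.71 and -0.84. miR-27b was thus the higher count in all control rats and in 4 of 6 pregnant rats, with probe efficiency unknown. The difference between the groups was -0.11, with an interval of -0.70 to 0.48 and an exact permutation p of 0.675. For miR-23a against miR-27b the difference was -0.22, with an interval of -0.73 to 0.28 and an exact permutation p of 0.327. None of the 3 pairs passed 0.05 before or after adjustment, and the intervals still allow shifts of up to about 0.7 on the log2 scale.

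**Figure D3:**
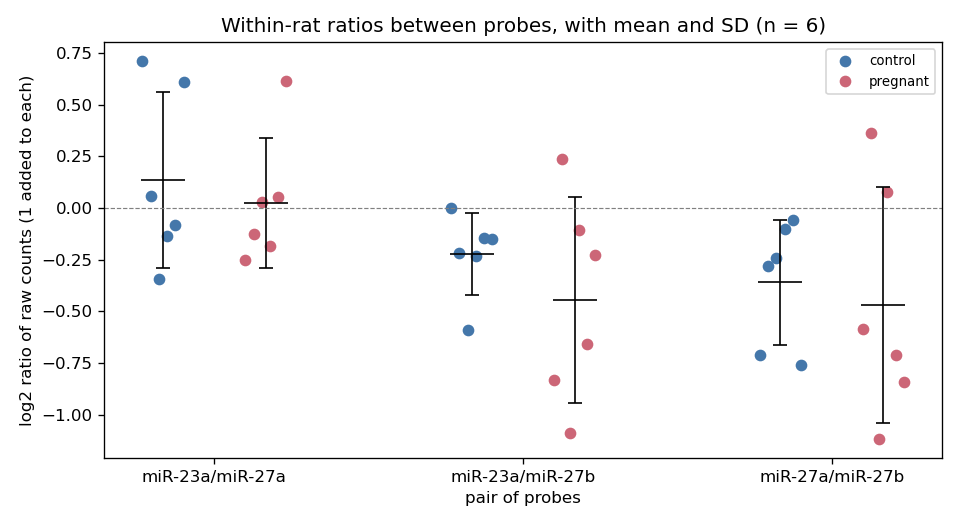
Within-rat log2 ratios of raw counts (1 added to each) for 3 pairs of probes, 1 point per rat, with the mean and SD of the 6 control and the 6 pregnant rats as black bars. The groups overlap in every pair, and the group means differ by 0.11 to 0.22.

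The counts of the 3 abundant probes varied together from rat to rat, for pairs assigned by name across clusters as well as within one. Over 12 rats, Pearson's r of the log2 CPM after TMM (counts scaled to a common total) was 0.951 for miR-23a with miR-27a, 0.949 for miR-23a with miR-27b and 0.932 for miR-27a with miR-27b. Each had a permutation p of 1e-05, the smallest that 100000 resamples can give, and an adjusted p of 0.000925 over the 555 relations of the 3 miRNAs with all tested probes. Spearman's rho was 0.881, 0.909 and 0.881, with adjusted p of 0.0104, 0.00832 and 0.0116 by the same permutation procedure. Without the 2 rats farthest from the median, r was 0.915, 0.897 and 0.894, and the adjusted permutation p was 0.0166, 0.0644 and 0.0777. The last 2 relations did not pass after adjustment without those rats, while r changed little. Without pregnant replicates 5 and 6, r was 0.922, 0.902 and 0.879 (adjusted permutation p = 0.0148, 0.0395 and 0.0395). Without pregnant replicates 1 and 2 it was 0.906, 0.926 and 0.891 (adjusted permutation p = 0.0228, 0.0204 and 0.0237). Spearman's rho did not pass after adjustment without either pair, at 0.794 to 0.842 (adjusted permutation p from 0.119 to 0.182).

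Within the 6 pregnant rats the order of the rats was the same for all 3 miRNAs (rho = 1), with r of 0.990, 0.958 and 0.950 and an adjusted exact permutation p of 0.0514 for each. Within the 6 control rats r was 0.736, 0.895 and 0.928, with an adjusted exact permutation p of 0.701 for each. The levels also followed the total count of the rat. The log2 CPM after TMM correlated with the log2 total at r = 0.786 for miR-23a, 0.742 for miR-27a and 0.888 for miR-27b over 12 rats. The part of depth in the shared variation was not tested.

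**Figure D4:**
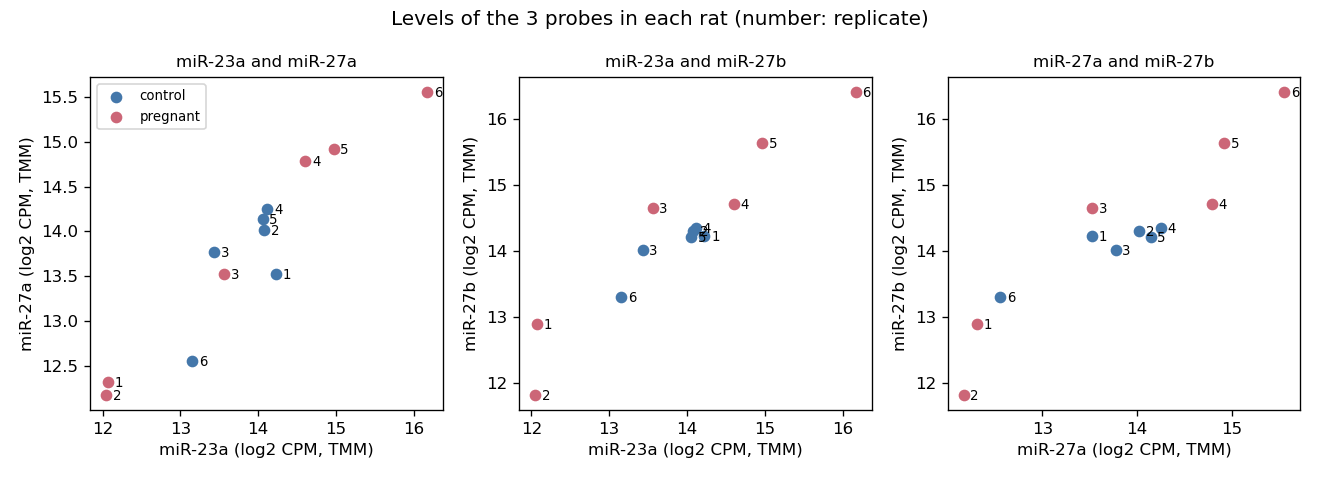
Log2 CPM after TMM of miR-23a, miR-27a and miR-27b plotted against each other in 3 panels, 1 point per rat, coloured by group and numbered by replicate. The points run along a diagonal in each panel (r = 0.951, 0.949 and 0.932), with pregnant replicates 1 and 2 at the low end and 5 and 6 at the high end.

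Some other probes had an r with the 3 miRNAs near that of the members with each other. Among the 186 other tested probes, the median r with miR-23a was -0.06, and 6 were above 0.9. The nearest to miR-23a were miR-27a, miR-27b and miR-29c (r = 0.936). The nearest to miR-27a were miR-301a (r = 0.952), miR-23a and miR-27b, and 3 probes were above 0.9. The nearest to miR-27b were miR-29a (r = 0.975), miR-23a and miR-301a (r = 0.941), and 10 probes were above 0.9. Of these nearest probes, miR-301a (mean log2 CPM 10.9) and miR-29c (12.6) were not above background in all rats. The mean was 14.1 for miR-27a. These correlations share the libraries and their depth, and are given as a description.

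The spread of the levels was larger among the pregnant than among the control rats, but the difference did not pass after adjustment over all tested probes. The mean absolute deviation from the group median, on the log2 scale after TMM, was 0.30 in control and 1.35 in pregnant rats for miR-23a, a ratio of 4.54 (two-sided exact permutation p = 0.0216, adjusted p = 0.352). For miR-27a it was 0.43 and 1.21, a ratio of 2.83 (exact p = 0.0433, adjusted p = 0.352). For miR-27b it was 0.22 and 1.23, a ratio of 5.47 (exact p = 0.0779, adjusted p = 0.416). A wider spread in the pregnant group was found for 129 of the 187 tested probes, with a median ratio of 1.42, and 23 (12.3%) passed an unadjusted 0.05 in this direction, as 2 of the 3 members did. None of the 187 passed after adjustment, where the lowest adjusted exact permutation p was 0.202. By the size of the ratio, miR-27b ranked 7, miR-23a 10 and miR-27a 33 of 187. Since most of the 187 were not above background in all rats, these ranks and the median ratio do not refer to equally abundant probes. On log2 raw counts the ratios were 5.50, 4.99 and 6.82 for miR-23a, miR-27a and miR-27b, and 27 of 187 probes (14.4%) passed the unadjusted threshold, again with 2 of the 3 members among them. The ratios changed when rats were left out. Without control replicate 6 they were 7.92 for miR-23a, 5.50 for miR-27a and 14.3 for miR-27b. Without pregnant replicates 1 and 2 they were 2.51, 1.26 and 2.96, and without pregnant replicates 5 and 6 they were 3.42, 2.24 and 5.17. Over all tested probes, 94 of 187 had a wider spread in pregnant rats without pregnant replicates 5 and 6, with a median ratio of 1.01. The 23 probes past the unadjusted threshold became 5, 6, 13, 12, 3 and 2 without pregnant replicates 1 to 6 in turn. Without any 1 control rat they became 24 to 28. When 1 rat is left out, the median of its group is itself a rat's value, with no deviation. This tends to lower the spread measured in that group. Part of the changes on leaving out single rats can follow from this, and that part was not tested.

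Among the 187 tested probes, these miRNAs were among the more variable ones. Most of the 187 were not above background in all rats, so this comparison does not set the 3 miRNAs against equally abundant ones. The SD over 12 rats of the log2 CPM was 1.16 for miR-23a, 1.05 for miR-27a and 1.19 for miR-27b, against a median of 0.42 over the 187 tested probes, which put them at ranks 176, 172 and 179 from the least variable. The study itself used miR-27b, chosen with its own NormFinder run, as a reference in PCR. With the stand-in background used here, NormFinder, which scores stability within and between groups, placed miR-27b at rank 16, miR-27a at 19 and miR-23a at 24 of the 38 probes above background in all rats. The ranks depended on the scale. On log2 raw counts they were 27, 28 and 32, and on linear values miR-27b stood at rank 34, miR-27a at 1 and miR-23a at 8. The 5 lowest stability values on the main scale were 0.113 to 0.257, against 0.367 for miR-27b, 0.388 for miR-27a and 0.397 for miR-23a.

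The ratio of miR-451 to miR-23a compares a red cell miRNA with its usual plasma reference. Its log2 value was 1.45 ± 1.06 in control and 1.46 ± 0.84 in pregnant rats (SD, n = 6 each). The difference was 0.01, with a 95% interval of -1.22 to 1.26 (exact permutation p = 0.989). The rats ranged from -0.08 in control replicate 2 to 2.72 in control replicate 6, so both extremes were control rats. With miR-27a in place of miR-23a the difference was -0.10 (-1.35 to 1.15, exact permutation p = 0.864), and with miR-27b it was -0.21 (-1.31 to 0.87, exact permutation p = 0.671). Counts on this panel have no set limit for haemolysis, and the ratio is not the one from PCR.

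Red cell markers varied with the 3 miRNAs from rat to rat, as did platelet markers other than miR-24 and most of the plasma references. The red cell list holds miR-451, miR-144, miR-16 and miR-486, of which 3 were on the table, and these summed to 316 to 1243 counts in control and 56 to 4459 in pregnant rats. Their r with miR-23a over the 12 rats was 0.731 for miR-451, 0.767 for miR-144 and 0.868 for miR-16. With miR-27a these values were 0.708, 0.791 and 0.820, and with miR-27b they were 0.791, 0.848 and 0.849. miR-144 was above background in 6 of the 12 rats and miR-16 in 10, with miR-16 at 1 count in pregnant replicates 1 and 2. The platelet list (miR-126, miR-191, miR-223, miR-16 and miR-24) summed to 262 to 638 counts in control and 43 to 2858 in pregnant rats, with miR-24 at 1 throughout. For these probes r with miR-23a was 0.840 for miR-126, 0.811 for miR-191 and 0.677 for miR-223, which was above background in 6 rats. The endothelial list (miR-126, miR-221 and miR-222) summed to 71 to 181 and 44 to 799 counts. Of these, miR-126 reached 752 counts and had an r of 0.840 with miR-23a, while r was 0.06 for miR-221 and -0.50 for miR-222, which was above background in 0 rats. The liver list (miR-122 and miR-192) summed to 142 to 2646 and 85 to 5730 counts, and r with miR-23a was 0.323 for miR-122 and 0.744 for miR-192. The list of plasma references (miR-191, miR-103, miR-20a, miR-93 and miR-25) summed to 334 to 663 and 99 to 1693 counts. Their r with miR-23a was 0.811 for miR-191, 0.854 for miR-20a, 0.785 for miR-93 and 0.860 for miR-25. For miR-103, which was above background in 0 rats, it was 0.177. In the count model 0 probes of these lists passed the adjusted threshold, and the median log2 fold changes were 0.76 for the red cell list, 0.72 for the platelet list, 0.50 for the endothelial list (2 tested probes, miR-126 at 1.01 and miR-221 at -0.01), 1.33 for the liver list and 0.50 for the references, beside 0.05 for all tested probes. The part of these cells in the levels of miR-23a, miR-27a and miR-27b was not tested.

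The study processed its counts along 14 workflows that combine a background correction (none, subtraction or thresholding, at 3 levels) with a normalisation to NormFinder probes or to all probes above background (total RNA). They were rebuilt here with the stand-in background, which gave 38 total RNA probes and, from these, 5 NormFinder probes. These sets are not the study's own. In none of these workflows did a member differ between the groups. In 42 tests of the 3 miRNAs, 0 passed an unadjusted two-sided exact permutation p of 0.05, beside 91 of 5880 (1.55%) over all probes and workflows. Thresholding left the values of the 3 miRNAs unchanged. For them, workflows 9 to 11 repeated workflow 1 and workflows 12 to 14 repeated workflow 2, so the 42 tests were not all separate. The lowest exact permutation p was 0.355, for miR-27b in workflow 1, where its processed count was 172 ± 34.6 in control and 323 ± 316 in pregnant rats (SD, n = 6 each).

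For each of the 3 miRNAs the folds with NormFinder probes were above those with total RNA. The fold of group means lay between 1.62 and 1.64 for miR-23a with NormFinder probes and between 1.03 and 1.26 with total RNA. For miR-27a it lay between 1.42 and 1.48 with NormFinder and between 0.946 and 1.20 with total RNA. For miR-27b it lay between 1.80 and 1.88 with NormFinder and between 1.16 and 1.47 with total RNA. The lowest fold of each miRNA came from workflow 6, which subtracts the mean + 2 SD and normalises to total RNA, and there miR-27a was the only one below 1. The 3 miRNAs themselves belong to the 38 total RNA probes. When pregnant replicates 1 and 2 were left out, 11 of the 42 tests passed the unadjusted threshold, beside 392 of 5880 (6.67%) over all probes, and 0 passed after adjustment. Without pregnant replicates 5 and 6, 1 of the 42 passed it, beside 181 of 5880 (3.08%).

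**Figure D5:**
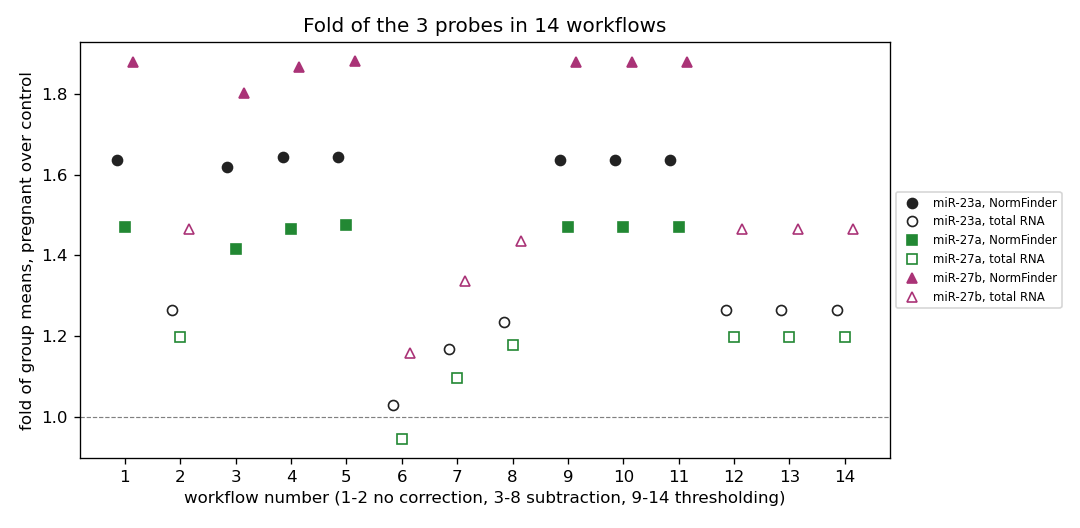
Fold of group means, pregnant over control (vertical axis), of miR-23a, miR-27a and miR-27b in workflows 1 to 14 (horizontal axis), with filled symbols for NormFinder and open symbols for total RNA normalisation. The NormFinder folds of each miRNA lie above its total RNA folds, from 1.42 to 1.88 against 0.946 to 1.47.

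Few other probes share the seeds. Names of 367 of the 420 probes matched a RefSeq mature sequence on either arm, and 8 probes other than the members held a miR-23, miR-24 or miR-27 seed, or 6 bases of it, within their first bases. Their counts lay between 1 and 22, and none was above the mean + 1 SD of the background in more than 2 rats. miR-128 is shown because it holds the whole miR-27 seed, set 1 base nearer to its 5′ end, with its own seed in capitals.
miR-128: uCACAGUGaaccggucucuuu
miR-128 had 3 to 13 counts, with a median of 5.5, and was above background in 0 rats. The probe above background in 2 rats was miR-323, at 8 to 22 counts, which holds 6 bases of the miR-23 seed. Of the miRNAs with a whole miR-23 or miR-27 seed on this panel, those counted above background were therefore miR-23a, miR-27a and miR-27b.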

How the data were processed

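The authors deposited raw nCounter counts per probe for 12 plasma samples, 1 per rat, read with the rat v1.5 miRNA codeset and not yet corrected or normalised. Each value is a whole number, the lowest being 1, and 0 columns were left unused. Of its 429 probes, 420 read rat miRNAs, 5 exogenous miRNAs and 4 mRNAs. Groups and replicate numbers were taken from the sample labels, and the control probes of the lanes were not used here, so the 4 unspiked exogenous probes stood in for the background. The plasma reference list adds miR-93 and miR-25 to miRNAs that the study uses. The members, the marker lists and the tests were chosen with earlier results of these data known. The probes named are the members, the marker lists, probes sharing a member's seed, and the 3 tested probes with the highest r with each member.

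Counts were fitted with edgeR 4.0.16 (glmQLFit and glmQLFTest, TMM, R 4.3.3) over the 187 probes that reached 10 counts in 6 rats or more, with Benjamini-Hochberg adjustment over these probes and a threshold of 0.05. limma 3.58.1, DESeq2 1.42.0, other scalings and filters, age, and leaving out each rat were alternatives. Ratios of counts used a pseudocount of 1. Group differences of single values were tested by two-sided exact permutation over the 924 assignments of 6 of 12 rats, for which the smallest p is 0.00216, and correlations by 100000 permutations (exact within a group). Intervals of a difference are 95% intervals obtained by inverting the exact test. Each p-value sets a difference or a correlation against the variation between rats. Sequences came from RefSeq (GRCr8). Permutations ran in Python 3.11.15 with scipy 1.17.1, pandas 2.3.3 and numpy 2.4.6.

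Some choices departed from the plan after values had been seen. miR-23b, which was not above background, and miR-24, with the same count in every rat, were left out of the ratio, correlation, spread and workflow tests. The adjustment planned over the members was replaced by one over all tested probes for correlation and spread, and over all 420 probes of a workflow for the workflows. Leaving out pregnant replicates 5 and 6, or 1 and 2, was added.

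The edgeR procedure was tested on counts simulated for the 420 probes. For pregnant against control it recovered 82.0% of 111 tested probes changed 2-fold, with 2 false calls, and 100% of 103 changed 4-fold, with 4 false calls. Every simulated probe had the same dispersion, the median of the fitted trend. By SD of log2 CPM, miR-23a, miR-27a and miR-27b ranked 176, 172 and 179 of 187 from the least variable. The shares recovered therefore do not apply to these 3 miRNAs. The NormFinder code first recovered only 2 of 5 stable probes among 30 simulated ones, in data without group differences. It recovered 5 of 5 after the simulation had been changed so that the unstable probes also differed between groups. The stability ranks are therefore less certain where group differences are small.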

Additional observations from a re-analysis of the deposited data

Results flagged for a closer look

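Among the 18 groups of 6 rats tested for a single distant value, 2 had one; about 1 in 20 such groups is marked by chance. In control replicate 6 the log2 CPM of miR-27b after TMM was 13.30, below the other control rats at 14.02 to 14.35. In pregnant replicate 6 the log2 ratio of miR-23a to miR-27a was 0.617, above the other pregnant rats at -0.25 to 0.05. This rat also had the highest counts of both miRNAs, 1005 and 655.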

How the results depend on the processing

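No difference of a member between the groups passed the adjusted threshold under any alternative run. The log2 fold changes of miR-23a and miR-27a turned to -0.12 and -0.15 with library size scaling and to -0.18 and -0.040 with limma-voom. Without pregnant replicates 5 and 6, an alternative chosen after seeing the data, they were -0.45 and -0.22, and that of miR-27b was -0.17. The replicate numbers did not pair the rats (correlations of same-numbered deviations between -0.34 and 0.27), and with the replicate block the log2 fold changes were 0.04, 0.12 and 0.30.

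Differences in the ratios between members did not pass under any alternative. In the younger rats they differed by 0.079 (miR-23a/miR-27a), 0.092 (miR-23a/miR-27b) and 0.013 (miR-27a/miR-27b), and miR-27a/miR-27b by 0.043 without pregnant replicates 5 and 6. After subtraction of the mean + 2 SD they were -0.61, -0.76 and -0.14. Leaving out each rat gave -0.23 to 0.0028 for miR-23a/miR-27a, -0.36 to -0.094 for miR-23a/miR-27b and -0.28 to 0.019 for miR-27a/miR-27b. For miR-451/miR-23a the difference was -0.0053 with a pseudocount of 5, 0.70 after subtraction of the mean + 2 SD and -0.71 in the younger rats. For miR-451/miR-27a it was 0.084 after subtraction of the mean + 2 SD and 0.041 without pregnant replicates 1 and 2. Leaving out each rat gave -0.30 to 0.26, -0.42 to 0.25 and -0.52 to 0.054 for miR-451 over miR-23a, miR-27a and miR-27b.

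Pearson's r kept its sign everywhere but missed the adjusted threshold within control rats (0.736, 0.895 and 0.928), within pregnant rats (0.990, 0.958 and 0.950) and, for the pairs with miR-27b, without the 2 farthest rats (0.897 and 0.894); fewer rats entered these. Spearman's rho passed within pregnant rats (adjusted permutation p = 0.0302), but missed within control rats (0.804 to 0.980), with library size scaling for both pairs with miR-27a (0.179) and on raw counts for miR-27a/miR-27b (0.0712). miR-23b was above background in 1 rat at the mean, and in 1 with the mRNA probes as background. Median workflow folds of miR-23a were 0.955 on log2 values, and without pregnant replicates 5 and 6 those of miR-23a, miR-27a and miR-27b were 0.680, 0.804 and 0.819. Leaving out each rat gave 0.877 to 1.68 for miR-23a and 0.988 to 1.50 for miR-27a, lowest without pregnant replicate 6. Unadjusted workflow tests of the members passed in 1 of 42 cases without pregnant replicates 5 and 6 (3.08% over all probes) and in 11 without 1 and 2 (6.67%). The causes of these shifts were not tested.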
